A study of Homo sapiens with 12 samples.

Results

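The genes described here are 5 guanylate-binding protein genes (GBP1, GBP2, GBP3, GBP4 and GBP5) and 4 apolipoprotein L genes (APOL1, APOL2, APOL3 and APOL6). They were picked by gene name, with earlier results of these data known, and are 9 of the 60609 annotated genes in the transcript files. The other 4 annotated genes of the 2 families were at most 0.257 TPM in any library. All 9 were among the 17185 genes with at least 1 TPM (a transcript level scaled to library size and transcript length) in at least 2 of the 12 libraries, which were the genes tested. The cells were NS-SV-AC, a human line established from acini of a salivary gland, and their polyadenylated RNA was sequenced. The 3 treatments were the solvent DMSO, 2-CM (2'-C-methyladenosine, a nucleoside analogue) and RES (resveratrol, a plant polyphenol), each with a transfection labelled depc as control or with the double-stranded RNA mimic poly I:C. The compounds were used at 20 micromolar (the labels print the unit as μm), given 24 h before the transfection and again with it, exposure to poly I:C lasted 14 h, and growth lasted 48 h. Each of the 6 groups had 2 libraries, for 12 in all.

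GBPs are large GTPases of the dynamin superfamily that interferon, above all interferon gamma, switches on in most cell types. They assemble on the membranes of intracellular microbes and their vacuoles, and several of them are anchored there by a lipid tail added through prenylation. APOL proteins bind lipids and membranes. APOL1 is the secreted member and the serum factor that kills trypanosomes, while the others stay inside the cell, and interferon raises the transcripts of several. Both families are usually read as downstream products of interferon-activated transcription factors such as STAT2, IRF9 and IRF1.

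The start sites of GBP1, GBP3 and GBP4, the members with a promoter window in the reference table, are shown with the core of the interferon-stimulated response element, the site bound by complexes that hold STAT2 and IRF9 and by IRF1. The RefSeq promoter windows (build GRCh38.p14, 250 bases before to 50 after the start, minus strand of chromosome 1, written 5′ to 3′ along the gene) were matched for 3 of the 9 members. Capitals mark the response element core, 2 TTTC repeats with 2 bases between them (GAAA repeats on the other strand), and, in GBP3, also the gamma-activated sequence, TTC and GAA with 3 bases between them, an element of interferon gamma target genes.
GBP1, chr1:89065159-89065458: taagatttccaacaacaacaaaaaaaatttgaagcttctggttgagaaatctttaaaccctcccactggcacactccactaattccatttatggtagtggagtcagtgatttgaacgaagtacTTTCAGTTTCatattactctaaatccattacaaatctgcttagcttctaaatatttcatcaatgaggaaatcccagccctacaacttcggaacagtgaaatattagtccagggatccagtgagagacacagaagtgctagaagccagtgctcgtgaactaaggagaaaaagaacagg
GBP3, chr1:89022817-89023116: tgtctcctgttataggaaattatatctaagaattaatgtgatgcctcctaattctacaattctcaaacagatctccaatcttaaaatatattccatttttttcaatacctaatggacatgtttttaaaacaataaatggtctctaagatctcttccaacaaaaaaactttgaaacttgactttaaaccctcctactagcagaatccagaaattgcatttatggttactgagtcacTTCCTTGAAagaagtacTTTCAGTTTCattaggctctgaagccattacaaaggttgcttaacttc
GBP4, chr1:89198893-89199192: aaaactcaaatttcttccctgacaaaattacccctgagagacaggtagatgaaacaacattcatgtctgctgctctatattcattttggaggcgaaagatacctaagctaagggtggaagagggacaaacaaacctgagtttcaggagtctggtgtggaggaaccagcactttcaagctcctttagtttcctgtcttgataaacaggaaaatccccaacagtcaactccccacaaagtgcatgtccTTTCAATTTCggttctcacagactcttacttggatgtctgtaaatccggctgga
The core lay at bases -127 to -118 of GBP1, 3 to 12 of GBP3 and -4 to 6 of GBP4, counted from the start site as base 1. It was TTTCAGTTTC in GBP1 and GBP3 and TTTCAATTTC in GBP4. The gamma-activated sequence TTCCTTGAA of GBP3 lay at -15 to -7, and the letters of that motif were not in the GBP1 or GBP4 window. Searched on both strands, the core was in 3.57% and the gamma-activated sequence in 7.66% of 35116 promoter windows of the same length. The longest stretch that GBP1 and GBP3 shared was gaagtactttcagtttcat, of 19 bases, which holds the core and starts at -134 in GBP1 and at -5 in GBP3. The longest stretch shared with GBP4 was 9 bases for GBP1 and 8 for GBP3. A match is a description of the sequence and no sign of binding.

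The members sit in 2 clusters (hg38, with gene spans as the transcript files give them). The 5 GBP genes lie on the minus strand of chromosome 1 within 266 kb, in the order GBP3 (89006679-89022894), GBP1 (89052319-89065230), GBP2 (89106132-89150456), GBP4 (89181144-89198942) and GBP5 (89258950-89272804). APOL3 (36140330-36166177, minus), APOL2 (36226209-36239954, minus) and APOL1 (36253010-36267530, plus) lie within 127 kb on chromosome 22, and APOL6 (35648446-35668404, plus) lies 472 kb away from them. The gene span of GBP2 overlaps that of GBP7 on the same strand, and 7.19% of the read-length stretches of GBP2 transcripts were also in other genes, all in GBP7. This share was 1.47% for GBP5, 1.08% for GBP1, 0.892% for GBP4 and 0% for the other 5 members, so read assignment is least certain for GBP2. GBP7 itself was listed at 0 in all libraries.

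The libraries held 31.2 to 49.4 M reads assigned to annotated transcripts, as estimated from the coverage. Nothing in the labels says that the replicates came from separate cultures, so p-values measure only the spread between these libraries, which may be technical. Of the 8 salivary acinar markers, only BHLHA15 and SLC12A2 reached 1 TPM, and AQP5, MUC7, PRB1 and STATH were listed at 0 in all 12 libraries. Of the 8 epithelial markers, 4 reached 1 TPM, and the summed level of the 8 was 1683 to 3532 TPM with depc and 1099 to 1733 with poly I:C. That sum rested on KRT8, at 629.8 to 1958 TPM, and KRT18, at 466.4 to 1571. KRT7 was at most 2.16 TPM, EPCAM at most 1.23, CDH1 at most 0.596 and KRT19 at most 0.243. KRT5 and KRT14 were listed at 0 in all 12 libraries. The leukocyte markers PTPRC and CD3E were listed at 0 throughout. The summed leukocyte level was 10.5 to 21.1 TPM with depc and 9.28 to 22.7 with poly I:C, from CD79A, CD14 and CD68. Fibroblast markers summed to 57.1 to 107.5 TPM with depc and 30.0 to 92.0 with poly I:C, with COL1A2 at most 0.0193 and PDGFRA at most 0.0813. Within that sum COL1A1 fell by 1.39 in log2 with poly I:C averaged over compounds (adjusted p = 1.2e-04), while DCN rose by 1.28 (adjusted p = 0.0225) and LUM by 1.44 (adjusted p = 0.0264), and under 2-CM by 1.87 and 2.74. The part of these marker levels in the results was not tested.

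GBP1, which coats bacteria and recruits caspase-4 to lipopolysaccharide, was the most abundant GBP in every poly I:C library. It stood at 2.75 and 1.03 TPM in the 2 DMSO depc libraries and at 14.4 and 6.23 with poly I:C. Under 2-CM it stood at 1.5 and 1.33 with depc and at 37.1 and 35.9 with poly I:C. Under RES the values were 3.06 and 1.12 with depc and 6.56 and 16.8 with poly I:C. All 6 poly I:C libraries lay above all 6 depc libraries, and the 2-CM poly I:C libraries lay above every other library. Group means stood in a ratio of 5.46 for DMSO, 25.8 for 2-CM and 5.58 for RES. After a division by GC factors, described further on, the 2-CM means were 18.1 and 2.42 TPM in place of 36.5 and 1.42. In bulk RNA, more responding cells and more RNA per cell cannot be told apart. GBP1 made up 51.5 to 71% of the summed GBP level in poly I:C libraries and 26.0 to 45.3% in depc libraries.

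GBP3, a close relative of GBP1, was at 1.03 and 0.319 TPM in DMSO depc and 3.65 and 1.24 in DMSO poly I:C. The 2-CM values were 0.511 and 0.277 with depc and 8.08 and 5.79 with poly I:C. With RES they were 2.49 and 1.19 with depc and 2.41 and 8.69 with poly I:C, so the RES groups overlapped while those of DMSO and 2-CM did not.

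GBP4 and GBP5 were near 0 without poly I:C. GBP4, a member without a prenylation motif that dampens antiviral signalling, ranged from 0.0443 to 0.137 TPM in the 6 depc libraries, on 8.16 to 24.5 estimated reads. With poly I:C it stood at 1.15 and 0.791 under DMSO, 2.08 and 2.12 under 2-CM, and 0.551 and 1.08 under RES, on 101.4 to 286.7 reads. GBP5, which takes part in NLRP3 inflammasome assembly and is prenylated, ranged from 0 to 0.166 TPM with depc, with RES depc replicate 2 listed at 0. It stood at 0.671 and 0.259 with poly I:C under DMSO, at 2.35 and 2.03 under 2-CM, and at 0.410 and 1.31 under RES. Both genes had all 6 poly I:C libraries above all 6 depc libraries. No depc library of either reached 1 TPM, so both passed the filter through poly I:C libraries alone and had to differ. Both are reported on few reads, 0 to 17.3 for GBP5 with depc and 27.5 to 108.5 with poly I:C.

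GBP2, a prenylated GBP found on pathogen-containing vacuoles, had the lowest ratios of group means among the GBP genes, at 1.45 under DMSO, 2.58 under 2-CM and 1.16 under RES (with GC factors, its 2-CM mean was lower with poly I:C, at 2.35 TPM, than with depc, at 3.38). It stood at 2.17 and 1.95 TPM in DMSO depc and 3.72 and 2.25 in DMSO poly I:C. Under 2-CM it stood at 2.18 and 1.67 with depc and 5.23 and 4.72 with poly I:C, and under RES at 4.23 and 1.90 with depc and 2.39 and 4.72 with poly I:C. The RES groups overlapped. The other 2 GBP genes of the annotation, GBP6 and GBP7, were listed at 0 in all 12 libraries.

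The APOL sum exceeded the GBP sum at baseline, while APOL6 alone (1.94 TPM in DMSO depc) was no higher than GBP2 (2.06). The summed level of the 4 APOL members was 29.2 to 80.9 TPM with depc and 71.8 to 139.5 with poly I:C, against 3.35 to 10.1 and 10.8 to 54.8 for the 5 GBP members. APOL2, an intracellular protein of the endoplasmic reticulum, carried 37.6 to 54.1% of the APOL sum. It stood at 17.9 and 17.0 TPM in DMSO depc and 30.5 and 35.1 in DMSO poly I:C. Under 2-CM it stood at 14.6 and 15.6 with depc and 52.5 and 55.2 with poly I:C. Under RES it stood at 34.1 and 24.3 with depc and 47.1 and 53.0 with poly I:C. No depc library reached the poly I:C libraries of its own compound.

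APOL1 was at 13.6 and 9.01 TPM in DMSO depc and 23.8 and 25.5 in DMSO poly I:C. It was at 9.10 and 7.35 with depc and 46.0 and 38.9 with poly I:C under 2-CM, and at 31.1 and 16.2 with depc and 27.1 and 36.5 with poly I:C under RES. RES depc replicate 1 thus lay above RES poly I:C replicate 1. APOL3, which acts at Golgi membranes and dissolves bacterial membranes, was at 5.09 and 4.16 with depc and 7.96 and 8.63 with poly I:C under DMSO. The APOL3 values were 4.82 and 5.29 with depc and 19.5 and 15.1 with poly I:C under 2-CM, and 10.7 and 6.66 with depc and 9.94 and 14.6 with poly I:C under RES, where the groups overlapped.

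APOL6, a member linked to cell death that lies apart from the other 3 on the chromosome, had the highest ratios of group means among the 4 APOL members in TPM as deposited. It stood at 2.63 and 1.24 TPM in DMSO depc and 9.56 and 5.18 in DMSO poly I:C. Under 2-CM it stood at 1.54 and 0.951 with depc and 21.4 and 17.7 with poly I:C. Under RES it stood at 5.04 and 1.84 with depc and 6.32 and 12.3 with poly I:C. All 6 poly I:C libraries lay above all 6 depc libraries, with ratios of means of 3.81 under DMSO, 15.7 under 2-CM and 2.71 under RES. With GC factors the 2-CM means were 9.24 and 2.16 TPM. Of the other 2 APOL genes, APOL4 was at most 0.257 TPM and APOL5 at most 0.0419.

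**Figure D1:**
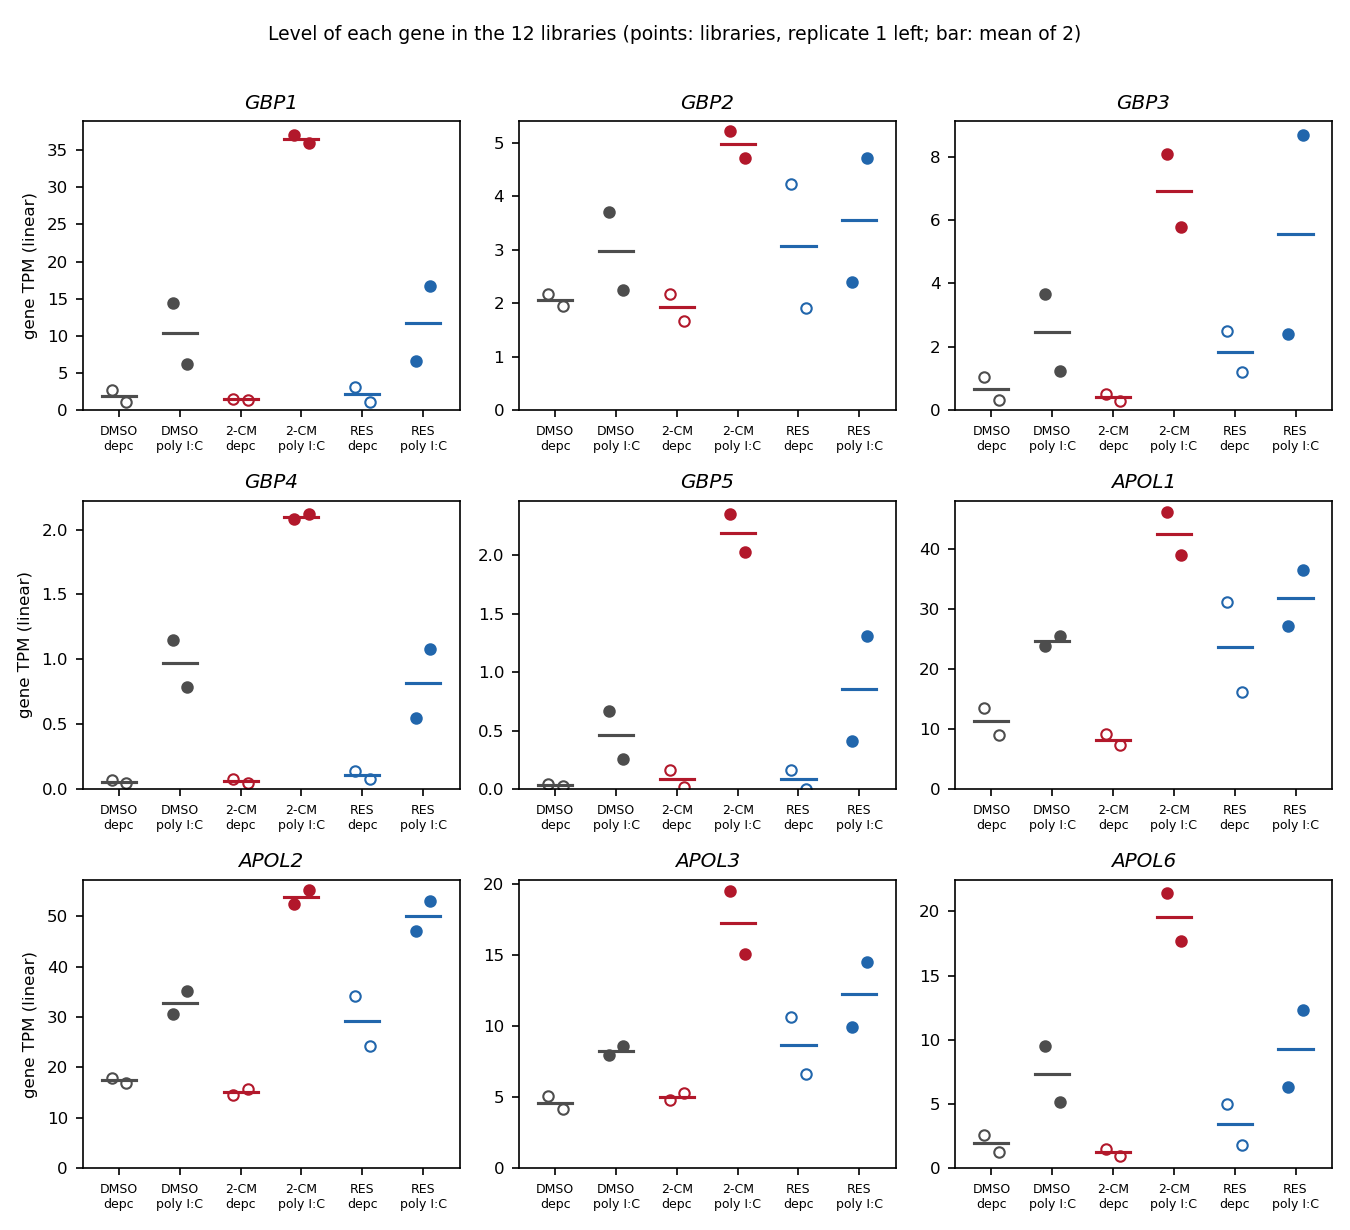
Gene TPM on linear axes that start at 0, for each of the 9 genes (panels) in the 6 groups (DMSO in grey, 2-CM in red, RES in blue; open points depc, filled points poly I:C); points are libraries with replicate 1 on the left, and bars are means of 2. In every panel of these deposited values the highest group mean is that of 2-CM poly I:C (with GC factors this holds for 5 of the 9, not for GBP2, GBP3, GBP4 or APOL2), and in the RES poly I:C group replicate 2 lies above replicate 1, while in the DMSO depc and RES depc groups replicate 1 lies above replicate 2.

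In order of group means, GBP1 ran from 1.42 ± 0.12 TPM (SD, n = 2) in 2-CM depc through 1.89 ± 1.21 in DMSO depc and 2.09 ± 1.37 in RES depc to 10.3 ± 5.80 in DMSO poly I:C, 11.7 ± 7.21 in RES poly I:C and 36.5 ± 0.821 in 2-CM poly I:C. The 3 depc groups did not differ beyond their spread, nor did DMSO poly I:C from RES poly I:C. APOL6 and GBP4 had the same split into depc groups and poly I:C groups, with 2-CM poly I:C on top at 19.6 ± 2.64 and 2.1 ± 0.0278 TPM. For APOL1, RES depc (23.6 ± 10.5 TPM) and DMSO poly I:C (24.6 ± 1.21) were neighbours that overlapped, and APOL3 had the same pair, at 8.65 ± 2.82 and 8.30 ± 0.473. For APOL2, RES depc at 29.2 ± 6.92 TPM and DMSO poly I:C at 32.8 ± 3.23 likewise overlapped. The RES depc group had the highest mean of the depc groups for 8 of 9 members, all but GBP5, in TPM as deposited. With GC factors GBP1 and GBP2 were highest in 2-CM depc instead, at 2.42 and 3.38 TPM beside 2.05 and 3.17 in RES depc. The share of all genes with RES depc on top was not counted. For RES against DMSO with depc the median of all genes was 0.15.

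Both poly I:C libraries lay above both depc libraries for 9 of 9 members under DMSO, where this held for 11.5% of all tested genes. Under 2-CM it also held for 9 of 9, against 62.6% of all genes, and under RES for 5 of 9, against 6.05%. The 5 were GBP1, GBP4, GBP5, APOL2 and APOL6, which had no overlap under any of the 3 compounds, as 3.14% of all genes did. All 6 poly I:C libraries lay above all 6 depc libraries for 4 of 9, GBP1, GBP4, GBP5 and APOL6, and for 1.33% of all genes. GBP4 and GBP5 had entered through their poly I:C libraries, so their places in these counts carry no support. The counts are for TPM as deposited. With GC factors GBP3 and APOL3 did not overlap under RES, nor, barely (26.3302 against 26.3323 TPM), did APOL1. GBP2 then overlapped under DMSO, and its poly I:C libraries lay below its depc libraries under 2-CM and RES. Shares of all genes with GC factors were not counted.

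Differences of log2(TPM + 1) understate changes at low TPM. On that scale limma called members higher with poly I:C at an adjusted p under 0.05 over all tested genes as follows. Under DMSO, 2 of 9 rose, against 0.797% of all genes. These were GBP4, higher by 0.89 in log2 (SE 0.181, adjusted p = 0.038), and APOL2, with 0.87 (SE 0.201, adjusted p = 0.0499). GBP4 was tested only because of its poly I:C level, which leaves APOL2 as the call to read against that share. The APOL2 call was lost with median-of-ratios scaling (1.03, adjusted p = 0.129), upper-quartile scaling (0.98, adjusted p = 0.113) and FPKM (1.02, adjusted p = 0.0664), among other settings, at values that were no smaller. Without the filter on low genes APOL2 also lost its call (0.87, adjusted p = 0.0539), while GBP4 kept its own. The GBP4 call was lost with FPKM (0.65, adjusted p = 0.0581), a replicate block (0.89, adjusted p = 0.0562) and a GC correction of log values (0.85, adjusted p = 0.137), among other settings. The median of the 9 was 0.89, and that of all genes -0.14. Over all genes 137 were called higher and 564 lower, and with median-of-ratios scaling 98 and 29. GBP1 had the largest value, 1.94 with a 95% interval of 0.72 to 3.15 (adjusted p = 0.0834), and APOL6 followed with 1.5 (0.44 to 2.56, adjusted p = 0.110). Neither APOL2 nor GBP4 kept the call without any 1 of the 4 DMSO or the 4 2-CM libraries, and APOL2 lost it also without either RES poly I:C library, where its value stayed at 0.87.

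Under 2-CM all 9 members rose, against 37.5% of all genes, and of these GBP4 and GBP5 had to differ, having passed the filter through poly I:C libraries alone. The median of the 9 was 1.77, and that of all genes 0.61. Over all genes 6440 were called higher and 2035 lower, and with median-of-ratios scaling, which still called 8 of the 9, 3482 and 4046. GBP1 rose by 3.96 (SE 0.534, adjusted p = 0.0104), APOL6 by 3.20 (SE 0.468, adjusted p = 0.0141) and GBP3 by 2.50 (SE 0.533, adjusted p = 0.027). APOL1 rose by 2.24, APOL2 by 1.77, APOL3 by 1.59, GBP5 by 1.55, GBP4 by 1.55 and GBP2 by 1.03, with GBP2 closest to the threshold (adjusted p = 0.0421). Without the filter on low genes GBP3 (adjusted p = 0.0600) and GBP2 (adjusted p = 0.0961) lost their calls at the same values, and GBP2 lost its call also with upper-quartile (0.56) and median-of-ratios scaling (0.39). With a GC correction of log values 6 of 9 were called, beside 14.1% of all genes, and GBP2 was at -0.59, GBP5 at -0.074 and GBP4 at 0.030. Without any 1 of the 4 2-CM libraries no member was called, and 37 to 46 genes of the whole table were, although the values moved little, from 3.91 to 4.01 for GBP1.

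Under RES 0 of 9 members were called by limma, against 0.198% of all genes called higher, and 5 of the 9 had an unadjusted p under 0.05, as had 2409 of the 17185 genes. Over all genes 34 were called higher and 42 lower, and with median-of-ratios scaling 37 and 2. GBP4 and GBP5, which passed the filter through poly I:C libraries alone, are among those 5, beside GBP1, APOL2 and APOL6. All 9 values were above 0, beside a median of -0.03 for all genes. They ran from 0.18 for GBP2 through 0.47 for APOL1 and APOL3, 0.70 for GBP4, 0.74 for GBP5, 0.78 for APOL2, 1.06 for GBP3 and 1.25 for APOL6 to 1.98 for GBP1. The adjusted p of GBP1 was 0.165. GBP2 turned to -0.25 without RES depc replicate 2 and to -0.20 without RES poly I:C replicate 2. Leaving out 1 RES library moved APOL1 between 0.015 (without depc replicate 2) and 0.92 (without depc replicate 1), APOL3 between 0.16 and 0.77 (the same libraries), and GBP3 between 0.30 (without poly I:C replicate 2) and 1.81 (without poly I:C replicate 1). APOL6 was at 0.71 without RES depc replicate 2 and at 0.82 without RES poly I:C replicate 2, and GBP5 was at 0.38 without the latter.

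Averaged over the 3 compounds, 8 of 9 members rose with poly I:C, against 13.4% of all genes, and among these 8 GBP4 and GBP5 again had to differ. GBP1 rose by 2.62 (SE 0.308, adjusted p = 0.00136), APOL6 by 1.99, GBP3 by 1.51, APOL1 by 1.26, APOL2 by 1.14 (adjusted p = 8.08e-04), GBP4 by 1.05 (adjusted p = 7.34e-04), APOL3 by 0.93 and GBP5 by 0.92. GBP2 had 0.52 (adjusted p = 0.0786). These 8 calls held in each fit that left out 1 library. With a GC correction of log values GBP4 (0.44, adjusted p = 0.115) and GBP5 (0.27, adjusted p = 0.266) lost theirs, and APOL3 lost its call from protein-coding transcripts alone (0.61, adjusted p = 0.0838). GBP2 passed the threshold without RES depc replicate 1, at 0.66, or without RES poly I:C replicate 1, at 0.65, and was at -0.13 with the GC correction and at -0.081 with GC factors.

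**Figure D2:**
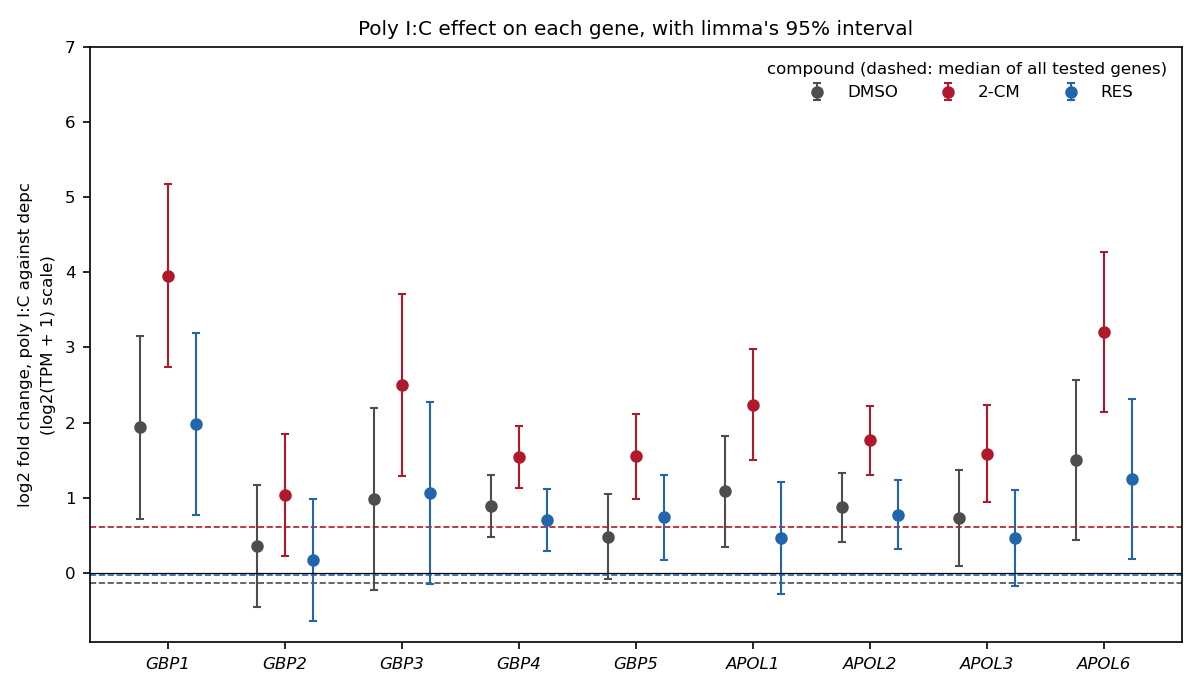
Log2 fold change of poly I:C against depc on the log2(TPM + 1) scale for each gene under DMSO (grey), 2-CM (red) and RES (blue); bars are limma's 95% intervals, and dashed lines are the medians of all 17185 genes. Every 2-CM point lies above the DMSO and RES points of the same gene, and the red dashed line lies at 0.61, above the other dashed lines at -0.14 and -0.03.

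The size of the poly I:C response varied with base composition over all genes, so the members are set beside genes of like composition. GC content of the exons was 40.3% in APOL6 and 40.5 to 41.7% in the 5 GBP genes, against 48.7% in APOL3, 52.3% in APOL1 and 53.7% in APOL2, with a median of 48.4% over tested genes. Under 2-CM, the 1484 genes with a GC content of 40 to 42% had a median log2 change with poly I:C of 1.57, and the 1152 genes with 52 to 54% had a median of 0.12. Beside the first, GBP4 and GBP5 at 1.55 and GBP2 at 1.03 lay at or below the median of genes of like composition, on a scale that understates low genes. The GBP4 ratio of means was 33.7 as deposited, and with GC factors its 2-CM means were 1.04 TPM with poly I:C and 0.105 with depc. GBP1 at 3.96, APOL6 at 3.20 and GBP3 at 2.50 lay above the median of genes of like composition. APOL1 at 2.24 and APOL2 at 1.77 lay above the median of theirs. Under DMSO the same medians were 0.03 and -0.20, and under RES 0.30 and -0.20.

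**Figure D3:**
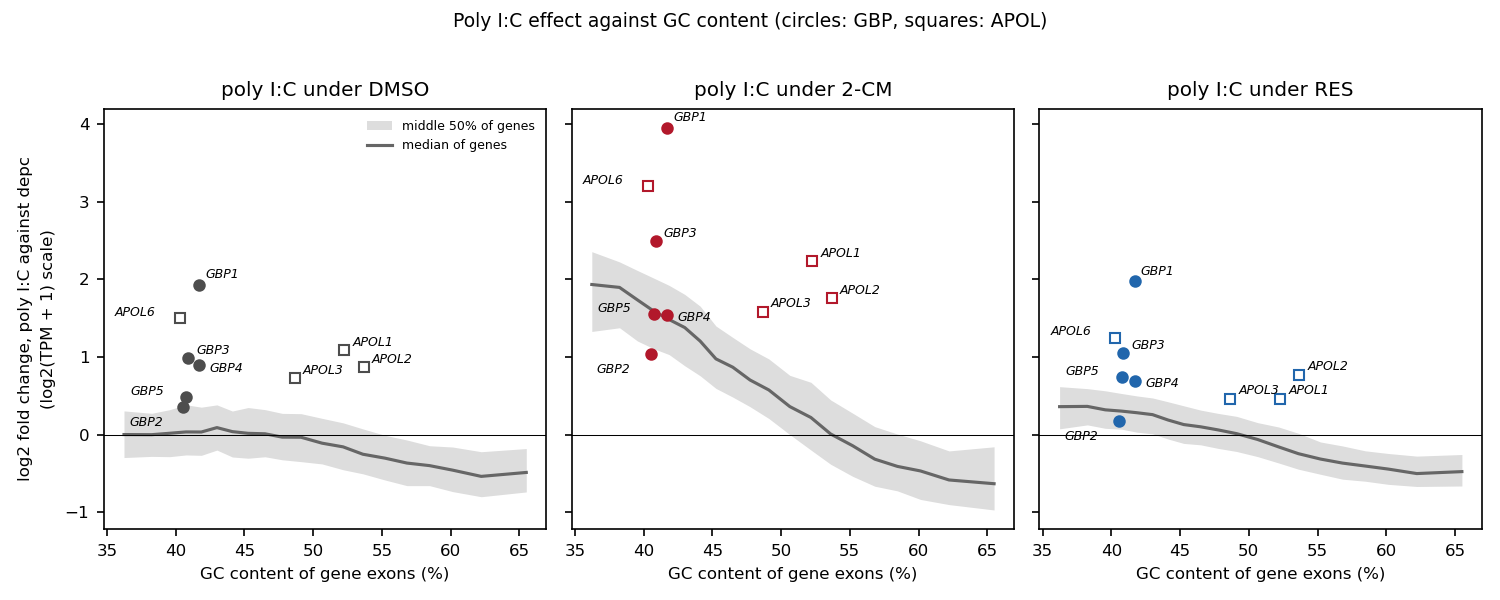
Log2 fold change with poly I:C (log2(TPM + 1) scale) against the GC content of gene exons in percent, under DMSO, 2-CM and RES; the line and band are the median and the middle 50% of genes in 20 bins, circles are GBP genes and squares APOL genes. Under 2-CM the median runs downward with GC content, and GBP4 and GBP5 lie inside the band and GBP2 just below it, while GBP1, GBP3, APOL6, APOL1, APOL2 and APOL3 lie above it.

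Replicates differed along the same axis. In the tenth of genes with the lowest GC content, the median difference of replicate 1 minus replicate 2 was 1.19 on the log2 scale in DMSO poly I:C, 1.33 in RES depc and -1.08 in RES poly I:C, and in the tenth with the highest it was -0.31, -0.42 and 0.40. An alternative chosen after seeing the data divided each library's TPM by a factor per GC bin. The 2 DMSO poly I:C values of GBP1 were then 10.3 and 10.3 in place of 14.4 and 6.23. The 2 RES poly I:C values of APOL6 were 7.58 and 7.13 in place of 6.32 and 12.3. Other pairs moved apart. In DMSO poly I:C, APOL3 had 7.95 and 10.8 in place of 7.96 and 8.63. In RES poly I:C, APOL2 had 47.2 and 60.3 in place of 47.1 and 53.0. Each factor came from that library's own genes, so closer pairs are in part built in. The response of GBP1 then came to 1.90 with DMSO (adjusted p = 4.29e-04), 2.48 with 2-CM and 1.69 with RES (adjusted p = 0.00178). Called members were 7 under DMSO (all but GBP2 and GBP5), 8 under 2-CM (all but GBP2), and 3 under RES (GBP1, APOL2 and APOL6), beside 7.86%, 14.9% and 1.4% of all genes called higher. GBP4, and under 2-CM also GBP5, are in these counts through the filter. GBP2 had -0.38 under 2-CM, from 3.44 and 3.31 TPM with depc to 2.33 and 2.37 with poly I:C (adjusted p = 0.123). With this division, APOL2 had 1.16 with DMSO, 1.86 with 2-CM and 1.05 with RES.

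**Figure D4:**
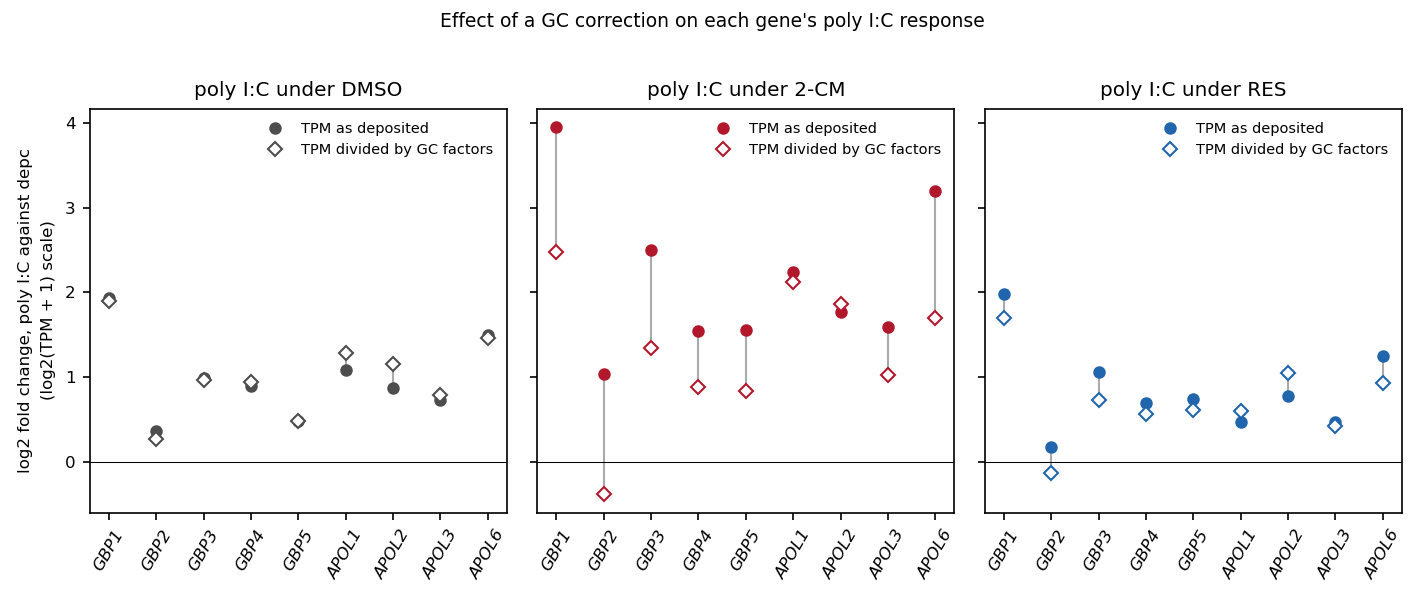
Log2 fold change with poly I:C (log2(TPM + 1) scale) from TPM as deposited (circles) and from TPM divided by GC factors (open diamonds), for each gene under DMSO, 2-CM and RES. Under 2-CM the value of GBP1 moves from 3.96 to 2.48, that of APOL6 from 3.20 to 1.7 and that of GBP2 from 1.03 to -0.38, while APOL1 and APOL2 move by little.

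The comparison of compounds asked whether 2-CM or RES changed the poly I:C response or the level. The response under 2-CM minus that under DMSO was above 0 for 9 of 9 members, beside medians of 0.68 for all genes and 1.54 for the genes with a GC content of 40 to 42%. GBP5, which passed the filter through 2-CM and RES libraries, is among the 9, and the signs hold for TPM as deposited. The GC correction of log values turned GBP2 to -0.89, GBP3 to -0.048, GBP4 to -0.82 and GBP5 to -0.50, and GC factors turned GBP2 to -0.66 and GBP4 to -0.055. None of the 9 was called by limma, against 0.0116% of all genes, and 6 had an unadjusted p under 0.05, as had 5097 of the 17185 genes. The differences were 2.02 for GBP1 (95% interval 0.30 to 3.74, adjusted p = 0.161), 1.7 for APOL6 (0.20 to 3.21), 1.52 for GBP3 (-0.20 to 3.23), 1.15 for APOL1 (0.10 to 2.20) and 1.07 for GBP5 (0.27 to 1.87). They were 0.89 for APOL2, 0.86 for APOL3, 0.68 for GBP2 and 0.65 for GBP4. Leaving out 1 library moved the difference of GBP3 between 0.99 and 2.04 and that of GBP2 between 0.41 and 0.95. With median-of-ratios scaling, which sets the median response under 2-CM to 0.03, APOL2, APOL3 and GBP2 turned to -0.090, -0.070 and -0.088. With the TPM divided by GC factors, the GBP1 difference was 0.58 and the APOL6 difference 0.24. The difference for RES had 0 of 9 members called by limma and 0 with an unadjusted p under 0.05, against 0% of all genes called and 293 genes with an unadjusted p under 0.05. Both comparisons use the DMSO libraries.

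Among libraries with poly I:C, all 9 members were higher under 2-CM than under DMSO, but 0 of 9 were called by limma, against 0.105% of all genes, and 8 had an unadjusted p under 0.05, as had 5884 of the 17185 genes. GBP5 is among them but reached 1 TPM in no DMSO library, so its difference was favoured by the filter. The largest differences were 1.83 for GBP1 (95% interval 0.61 to 3.04, adjusted p = 0.107), 1.34 for APOL6 (0.28 to 2.41), 1.28 for GBP3 (0.07 to 2.49) and 1.13 for GBP5 (0.57 to 1.7, adjusted p = 0.0905). The others were 0.97 for APOL3, 0.76 for APOL1, 0.70 for APOL2, 0.66 for GBP4 and 0.61 for GBP2, with 0.59 as the median of all genes. With median-of-ratios scaling GBP2, APOL1 and APOL2 were at -0.00151, -0.0016 and -0.065. GBP2 and GBP4 were at -0.47 and -0.36 with the GC correction of log values and at -0.31 and -0.0037 with GC factors. Without DMSO poly I:C replicate 2, GBP3 was at 0.75 and GBP2 at 0.34. RES against DMSO with poly I:C had 0 of 9 called by limma, against 0.157% of all genes, and 1 with an unadjusted p under 0.05, as had 2296 of the 17185 genes.

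Among depc libraries, 2-CM against DMSO had 0 of 9 members called by limma, against 0.0349% of all genes, and none with an unadjusted p under 0.05. RES against DMSO had 0 of 9 called by limma, against 1.03% of all genes, and 3 members with an unadjusted p under 0.05, as had 2524 of the 17185 genes. These were APOL1, APOL2 and APOL3, which were higher under RES by 0.96 (95% interval 0.22 to 1.7, adjusted p = 0.199), 0.69 (0.24 to 1.15, adjusted p = 0.138) and 0.75 (0.11 to 1.40, adjusted p = 0.245). Without RES depc replicate 1 they were 0.51, 0.46 and 0.45, and without RES depc replicate 2 they were 1.41, 0.93 and 1.06. The median of all genes was 0.15. GBP1 and GBP4 had intervals of -1.13 to 1.30 and -0.34 to 0.48. These missed thresholds do not show that the compounds act alike.

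The authors' deposited tables give their own comparison of poly I:C with depc under each compound. Their log2 fold changes were above 0 for 9 of 9 members under each. The medians of all genes with an adjusted p were -0.015 under DMSO, 0.079 under 2-CM and -0.040 under RES. The share of all genes above 0 was not counted, and GBP2 under RES was at 0.30 with a standard error of 0.54. In the authors' deposited tables, 4 of 9 had an adjusted p under 0.05 under DMSO, against 0.751% of all genes called higher, 8 of 9 under 2-CM, against 23% of them, and 2 of 9 under RES, against 0.266%. The 4 were GBP1 (2.61, adjusted p = 6.74e-05), GBP4 (4.17, adjusted p = 9.3e-09), GBP5 (3.56, adjusted p = 0.0189) and APOL6 (2.12, adjusted p = 2.94e-04) in the authors' deposited table for DMSO. The authors' deposited table for RES had GBP1 at 2.67 (adjusted p = 0.00125) and GBP4 at 2.95 (adjusted p = 0.0104). Under 2-CM the authors' deposited table had GBP1 at 3.78, APOL6 at 3.14, GBP3 at 3.43 and GBP2 at 0.52 (adjusted p = 0.121). In the authors' deposited tables only GBP1, GBP3 and APOL6 had a larger value under 2-CM than under DMSO. The other members were lower under 2-CM by less than the standard error of either value, so no direction is read for them. GBP2 had 0.52 against 0.71 (standard errors 0.28 and 0.44), GBP4 4.12 against 4.17 (0.48 and 0.62) and GBP5 3.09 against 3.56 (0.71 and 0.94). APOL1 had 1.21 against 1.26 (0.20 and 0.40), APOL2 0.97 against 1.11 (0.18 and 0.41) and APOL3 1.06 against 1.18 (0.26 and 0.43). These values are on another scale than log2(TPM + 1).

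The transcript files split each gene over annotated transcripts. GBP1 was carried by the protein-coding ENST00000370473.5 (2883 bases, 11 exons) at 79.1 to 93.1% of its TPM in all 12 libraries, and its 7 retained-intron transcripts together took 6.89 to 20.9% with depc and 7.52 to 13.5% with poly I:C. APOL2 was led by ENST00000358502.10 (59.4 to 89.9%), GBP2 by ENST00000370466.4 (96.7 to 99.2%), and GBP4 and APOL6 by 1 transcript each at 100%. GBP3, GBP5, APOL1 and APOL3 had no stable leader, and that of GBP5 ran from 0 to 68.8%. The protein-coding GBP3 transcript ENST00000370481.9 ran from 0 to 75.4% of the gene, and in 2-CM poly I:C its retained-intron transcript ENST00000370482.6 took 0.247% in replicate 1 and 54.9% in replicate 2. The APOL1 transcript ENST00000397278.7 took 15.2 to 89.6%, with 16.3% and 69.2% in the 2 DMSO poly I:C libraries. With shares this far apart in replicates of 1 group, no isoform change was read for these genes. From protein-coding transcripts alone, APOL3 had -0.49 in place of 0.47 under RES.

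The genes whose pattern over the 12 libraries was most like each member's, by the root-mean-square difference of centred log2(TPM + 1), are given as a description. For GBP1 they were SAMD9 (0.205), DDX60 (0.230) and IFIT5 (0.240). For APOL2, STAT2 was nearest at 0.102, followed by SMTNL1 (0.177) and C16orf70 (0.180). For APOL6 the nearest were NMI (0.153) and SAMHD1 (0.193). HERC6 was nearest to GBP3 (0.192) and the third nearest to APOL6 (0.210). SNRNP27 (0.195) and CENPH (0.195) were almost as near to GBP3 as HERC6. GBP4 had CH25H (0.129), C17orf67 (0.135) and the pseudogene GBP1P1 (0.143) as its nearest, with GBP1P1 at 0 to 0.342 TPM with depc and 0.247 to 2.42 with poly I:C. GBP5 had CABCOCO1, MLKL and a long noncoding RNA, GBP2 had CDKL2 at 0.0978, APOL1 had MAGOH at 0.241 and APOL3 had C16orf70 at 0.179. Within the set, GBP4 and GBP5 were nearest to each other (0.187), as were APOL2 and APOL3 (0.216) and GBP3 and APOL6 (0.356).

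The counts of related genes that follow stand beside these shares of all genes. Under DMSO 0.797% were called higher and 3.28% lower with poly I:C, under 2-CM 37.5% and 11.8%, under RES 0.198% and 0.244%, and averaged over compounds 13.4% and 17.8%. Of the genes that induce and transduce the signal to these families, 13 of 14 were tested. Under DMSO, 2 rose (IRF9 and STAT2) and 1 fell (TYK2). Under 2-CM 9 rose and 1 fell, under RES 1 rose (IRF9), and averaged over compounds 7 rose and 1 fell. Their median was 0.37 under DMSO beside -0.14 for all genes, and 1.51 under 2-CM beside 0.61. IRF9, the DNA-binding part of the complex that reads the response element, rose by 4.29 under DMSO (adjusted p = 1.37e-04), 4.35 under 2-CM and 3.13 under RES. IRF9 ran from 1.43 to 3.81 TPM with depc and from 32.9 to 66 with poly I:C. Averaged over compounds, STAT2 rose by 1.21 and IRF1, a direct activator of GBP genes, by 0.61, while TYK2, a kinase of the type I receptor, fell by 0.79. IRF8 was at most 0.303 TPM in any library.

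Of 6 brakes of interferon signalling, 2 rose under DMSO, 4 under 2-CM, 1 under RES and 3 on average. USP18, which blocks the type I receptor, rose by 3.33 on average (adjusted p = 1.66e-05), and the cytokine-signalling inhibitors SOCS1 and SOCS3 rose by 0.93 and 0.87. Of 12 partners of GBPs in defence and cell death, 7 were tested. None was called by limma under DMSO or RES, 4 rose and 2 fell under 2-CM, and on average 3 rose and 2 fell. CASP1 and CASP4, the caspases of the inflammasome, rose by 1.11 and 0.86 and GABARAPL2, an autophagy protein, by 1.14, while GSDMD, the pore former they cleave, fell by 0.68 and SQSTM1, an autophagy receptor, by 0.60. AIM2 and CASP5 were listed at 0 in all 12 libraries, and NLRP3 stayed at or below 0.120 TPM.

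None of the 5 prenylation enzymes was called in any of the 4 poly I:C comparisons. Of 10 tested related large GTPases, 2 rose and 1 fell under DMSO, with a median of -0.07, and 2 rose and 0 fell under RES, with 0.13. Under 2-CM 5 rose and 1 fell, with a median of 1.54, and 2 rose and 3 fell on average. MX1 and MX2, the antiviral members, rose by 4.13 and 4.48, and DNM1, DNM2 and MFN2, which act in endocytosis and mitochondrial fusion, fell by 0.75, 0.71 and 0.46. Of 4 partners of APOL proteins, none rose, and NCS1 and PI4KB, which APOL3 is known to act on at the Golgi, fell by 0.71 and 0.58 on average.

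Other protein-coding genes within 500 kb of a member were 24, of which 16 were tested. On average over compounds 2 rose and 8 fell with poly I:C, with a median of -0.23 beside 0.16 for all genes. Under 2-CM 6 rose and 8 fell. On chromosome 1, 4 of 4 tested neighbours rose under 2-CM, with a median of 2.22 beside 0.61 for all genes, and 0 were called by limma under DMSO or RES. The neighbours were not matched for GC content, and genes with a GC content of 40 to 42% had a median of 1.57 under 2-CM. On average 1 of the 4 rose, GTF2B, a general transcription factor, by 1.46 (adjusted p = 0.0351). On chromosome 22, 1 of 12 rose (HMGXB4, by 1.06) and 8 fell, among them MYH9, a nonmuscle myosin gene, by 1.5 (adjusted p = 4.35e-05), FOXRED2 by 0.83 and MCM5 by 0.76. MYH9 stood at 141.4 to 222.0 TPM with depc and 52 to 79.8 with poly I:C, without overlap.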

How the data were processed

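RNA from 12 libraries in 6 groups of 2 was measured by poly(A) RNA-seq. Per the submitters' processing notes and the file headers, the authors used bcl2fastq 2.20, HISAT2 2.1.0, hg38 and StringTie 2.0.4 with GENCODE 32, and name DESeq2. Per the file headers, StringTie was run without a strand option. The deposited transcript files give coverage, FPKM and TPM, which here are other values (attributes of a transcript line). The authors' deposited tables give a mean of normalised counts as a signal, log2 fold changes and standard errors as log2 values, and p-values. Gene TPM is the sum over a gene's transcripts, and estimated reads are coverage times length divided by the read length. limma 3.58.1 (R 4.3.3; Python 3.11.15) was fitted on log2(TPM + 1) over all 12 libraries, 6 group means, with a trended prior, for genes with TPM of at least 1 in 2 libraries. Benjamini-Hochberg adjustment ran over 17185 genes in each of 10 comparisons, with a threshold of 0.05, and the fit had 6 residual degrees of freedom. The script was tested on simulated data.

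GC content comes from the exons in the transcript files and the hg38 sequence, and the 500 kb neighbours from the gene spans in those files. Gene and transcript types come from GENCODE 44, in which all 49338 genes with the same identifier and version had the same start and end. Promoter windows are RefSeq's. The members and lists were chosen with earlier results of these data known. Named genes are the 9 members, the other 4 genes of their families, the 3 nearest non-members of each member, and list genes called in a comparison (list genes listed near 0 and those at 0 were named after their values were seen). Alternatives were other scalings, filters, pseudocounts, GC corrections, a replicate block, protein-coding transcripts and leaving out each library. 1 gene of a list is not reported here by name.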

Additional observations from a re-analysis of the deposited data

How the results depend on the processing

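Under DMSO, where 2 members were called higher with poly I:C, the count was 0 with FPKM, 0 with a replicate block and 0 with only the groups compared, at values of 0.87 to 1.02 for APOL2 and 0.65 to 0.89 for GBP4, where 88, 95 and 6 of all genes were called higher in place of 137. It was 1 with upper-quartile scaling, 1 without a filter on low genes and 1 with a TPM minimum of 5, which left 6 members to test and not GBP4 (92, 123 and 143 of all genes), and 6 with a GC correction of log values, 6 with the block and that correction, and 7 with GC factors on the TPM scale, where 7.29%, 6.8% and 7.86% of all genes were called higher in place of 0.797%. Leaving out 1 library gave 0 to 3 members under DMSO, 0 to 9 under 2-CM and 8 to 9 averaged over compounds, while 19 to 176, 37 to 7860 and 584 to 5679 of all genes were called higher. Where this leaves 1 library in a group, that library is assumed to vary like the others. Under RES, where 0 were called, both GC corrections and the block with the first gave 3, beside 1.23 to 1.4% of all genes. For 2-CM against DMSO with poly I:C each GC correction alone gave 1, beside 4.56% and 7.08% of all genes. For 2-CM the median response of all genes was 0.61 from TPM, 0.40 from FPKM, 0.19 with upper-quartile and 0.03 with median-of-ratios scaling.

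Several values changed sign, and the cause was not tested. The GC correction of log values, which by its construction shifts low genes by the full amount, gave the same values with and without the replicate block. GBP2 then had -0.59 under 2-CM (adjusted p = 0.0420 with the block, past the threshold as lower), -0.10 under RES and -0.13 on average, and -0.38, -0.13 and -0.081 with GC factors. GBP5 had -0.074 under 2-CM with the correction of log values. For the response under 2-CM minus that under DMSO, the correction gave -0.89 for GBP2, -0.048 for GBP3, -0.82 for GBP4 and -0.50 for GBP5, GC factors gave -0.66 for GBP2 and -0.055 for GBP4, and median-of-ratios scaling gave -0.088 for GBP2, -0.090 for APOL2 and -0.070 for APOL3. For 2-CM against DMSO with poly I:C, the correction gave -0.47 for GBP2 and -0.36 for GBP4, GC factors -0.31 and -0.0037, and median-of-ratios scaling -0.00151 for GBP2, -0.0016 for APOL1 and -0.065 for APOL2. Under RES, APOL3 had -0.49 from protein-coding transcripts, and GBP2 had -0.25 to 0.60 with 1 library left out.

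The replicate numbers were not taken to pair the libraries. Same-numbered deviations correlated at 0.15 to 0.76 among 5 groups and at -0.80 to -0.31 with RES poly I:C. With the RES poly I:C numbers crossed in the replicate block, chosen after seeing the data, the counts were 5 under DMSO, 4 under RES, 6 for the difference of 2-CM and DMSO, 2 for RES against DMSO with depc, and 8 for 2-CM against DMSO with poly I:C. The shares of all genes called were then 3.57% and 1.09% (higher), 42.5%, 8.4% and 50.7%. Depth limits GBP4 and GBP5, which rest on at most 24.5 estimated reads in any depc library.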
